A study of Arabidopsis thaliana with 6 samples.

Results

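The 10 genes described here encode the enzymes that build the core structure of aliphatic glucosinolates in Arabidopsis, and were taken by gene identifier from the 37051 genes counted. In pathway order they are CYP79F1 (AT1G16410) and CYP79F2 (AT1G16400), CYP83A1 (AT4G13770), GSTF11 (AT3G03190) and GSTU20 (AT1G78370), GGP1 (AT4G30530), SUR1 (AT2G20610), UGT74C1 (AT2G31790), and SOT17 (AT1G18590) and SOT18 (AT1G74090). Their transcripts were measured by RNA-seq in tissue cut by laser capture microdissection (LCM) from the second internode of the inflorescence stem of untreated Col-0 plants, which had been moved from short to long days to flower. The tissues were the phloem cap, the pith, which is the central region of the stem, and the vascular bundle without its phloem cap, with 2 libraries each. The labels give no mutation, transgene or treatment for any tissue, and no number of plants behind a library. The comparisons ask in which of these tissues each step of the pathway was transcribed.

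Glucosinolates are sulfur-rich defence compounds of the mustard family, and the aliphatic ones in Arabidopsis are made mostly from chain-elongated methionine. A cytochrome P450 of the CYP79F type turns the amino acid into an aldoxime, which CYP83A1 oxidizes to a reactive product that is joined to glutathione. The glutathione conjugate is trimmed, cleaved by the C-S lyase SUR1, glucosylated on sulfur and finally sulfated. In the flower stalk, glucosinolates are stored at high concentration in S-cells, which lie just outside the phloem, and myrosinases in other cells release toxic products from them when tissue is damaged.

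The libraries held 19324189 to 22571632 counts. Levels are given as CPM (counts per 1000000 counts of a library, after TMM scaling) to compare tissues, and as TPM, which divides by gene length with introns, to compare genes. A library in which a gene has 0 counts could still hold up to 3, or 0.126 to 0.165 CPM. The 4 phloem markers summed to 1797 and 1229 CPM in phloem cap libraries, 43.8 and 55.5 CPM in pith libraries and 1111 and 750 CPM in those of the vascular bundle. In the pith APL had 1 and 7 counts, SEOR1 27 and 36 and NAC086 0 and 0. SUC2, the other phloem marker, had 768 and 1014 counts there (42.3 and 53.3 CPM), nearly all of the phloem marker sum. The 8 xylem and fibre markers summed to 253 and 711 CPM in phloem cap libraries, 218 and 162 CPM in pith libraries and 5072 and 5304 CPM in those of the vascular bundle. The 2 pith markers summed to 0.773 and 2.23 CPM in phloem cap libraries, 62.7 and 174 CPM in pith libraries and 1.23 and 1.66 CPM in those of the vascular bundle. The xylem and pith markers were thus each highest in the tissue that should hold them. The phloem markers were highest in the phloem cap, although the study treats phloem and phloem cap as separate tissues. The 3 cambium markers, at 1030 and 677 CPM in phloem cap libraries, 575 and 535 CPM in pith libraries and 604 and 440 CPM in those of the vascular bundle, were not highest in the vascular bundle. Nearly all of the pith sum was PXY, at 573 and 528 CPM. WOX4 had 0.055 and 0.525 CPM in pith libraries, and SMXL5 had 1.65 and 6.46 CPM. The 2 starch sheath markers disagreed. SCR was highest in pith libraries, at 19.9 and 26.8 CPM. It had 3.43 and 5.38 CPM in phloem cap libraries and 8.71 and 10.6 CPM in those of the vascular bundle. PIN3 was highest in phloem cap libraries, at 32.5 and 29.0 CPM. It had 2.86 and 2.05 CPM in pith libraries and 22.5 and 26.1 CPM in those of the vascular bundle. The 3 epidermis markers summed highest in the vascular bundle, at 461 and 501 CPM. Their sums were 19.9 and 125 CPM in phloem cap libraries and 3.47 and 9.51 CPM in pith libraries. Nearly all of the vascular bundle sum was CER6 and FDH. LTP1, the other epidermis marker, had 7.24 and 0.631 CPM in phloem cap libraries and 1.60 and 0.0525 CPM in pith libraries. In vascular bundle libraries LTP1 had 0.521 and 0.426 CPM. The phloem cap replicates stood farthest apart, with 3099 of 18829 genes more than 2-fold different, against 2617 between the pith replicates and 634 between those of the vascular bundle.

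Transcripts of the pathway were most abundant in the phloem cap, intermediate in the vascular bundle and least abundant in the pith. Together the core genes reached 6214 and 6547 CPM in phloem cap libraries, 450 and 281 CPM in pith libraries and 2561 and 1877 CPM in those of the vascular bundle. They made up 0.666% and 0.757% of all counts in phloem cap libraries, 0.0399% and 0.0246% in pith libraries and 0.256% and 0.195% in those of the vascular bundle. Each of the 9 genes with counts kept this order of tissues without overlap between libraries. How many of all genes kept the full order was not computed. By pairs of tissues, phloem cap libraries lay above those of the vascular bundle without overlap for 27.5% of genes tested. The full order requires this, so among those genes it was no more common than 27.5%. Pith libraries lay below those of the vascular bundle without overlap for 37.6%. In such bulk samples, fewer cells that transcribe a gene and less RNA per cell cannot be told apart. The summed phloem markers followed the same order of tissues, and their part in the result was not tested.

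**Figure D1:**
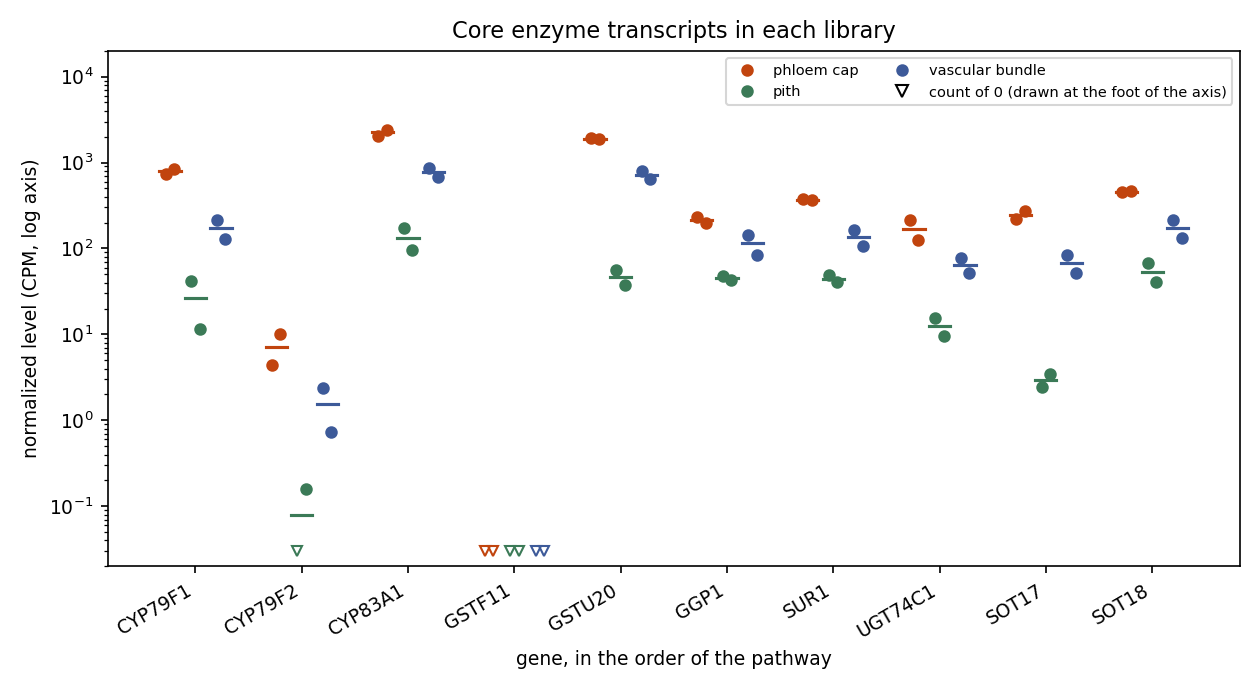
Normalized level of the core genes in each library (CPM, log axis), in pathway order, with phloem cap, pith and vascular bundle from left to right. Points are libraries, short lines are means of 2 libraries and open triangles are counts of 0. For every gene with counts both phloem cap points lie above both vascular bundle points, which lie above both pith points, whereas GSTF11 has only counts of 0. The share of all genes with this full order was not computed.

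Calls were made with edgeR's quasi-likelihood test at a Benjamini-Hochberg adjusted p-value below 0.01 over all genes tested and a fold change above 2. Set against the pith, the phloem cap had higher calls for all 9 genes tested, beside 8.33% of all genes in edgeR, and DESeq2's Wald test called all 9 as well, beside 12.6%. Their median log2 fold change was 4.07, beside 0.07 over all genes tested. In the pith against the vascular bundle, edgeR called 5 of 9 lower (CYP83A1, GSTU20, SUR1, UGT74C1 and SOT17), beside 10.5% of all genes, with a median of -2.54 for the 9 and -0.04 for all genes. Without vascular bundle replicate 1, the log2 fold changes of these 5 lay between -4.13 (SOT17) and -1.21 (SUR1), and the calls of SUR1 and UGT74C1 were lost. DESeq2's Wald test called 8 of 9 lower with all libraries, beside 13.9%. All 9 lay apart from the other tissue in every library, which held for 35% of all genes in the phloem cap above the pith and for 37.6% in the pith below the vascular bundle. Both comparisons share the pith libraries, so their calls are not separate evidence.

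Between phloem cap and vascular bundle the direction was as uniform, but the calls depended on the test. None of the 9 genes passed in edgeR, nor did any of the 18528 genes tested (0%). All 9 had an unadjusted p-value under 0.05 in edgeR, beside 9.93% of all genes with such a value and a higher level. All 9 were separated from the vascular bundle, with both phloem cap libraries above both others, which held for 27.5% of all genes. DESeq2's Wald test called 7 of 9 higher, beside 2.87%, with CYP79F2 and GGP1 not called. Their median log2 fold change was 1.45, beside 0.04 over all genes tested. With single libraries left out, the log2 fold changes of the 9 genes lay between 0.55 (GGP1) and 3.25 (CYP79F2). In every fit without a library, the lone library left of a tissue is assumed to vary like those of the other tissue. Calls of such fits are therefore weaker evidence than those on all 4 libraries.

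**Figure D2:**
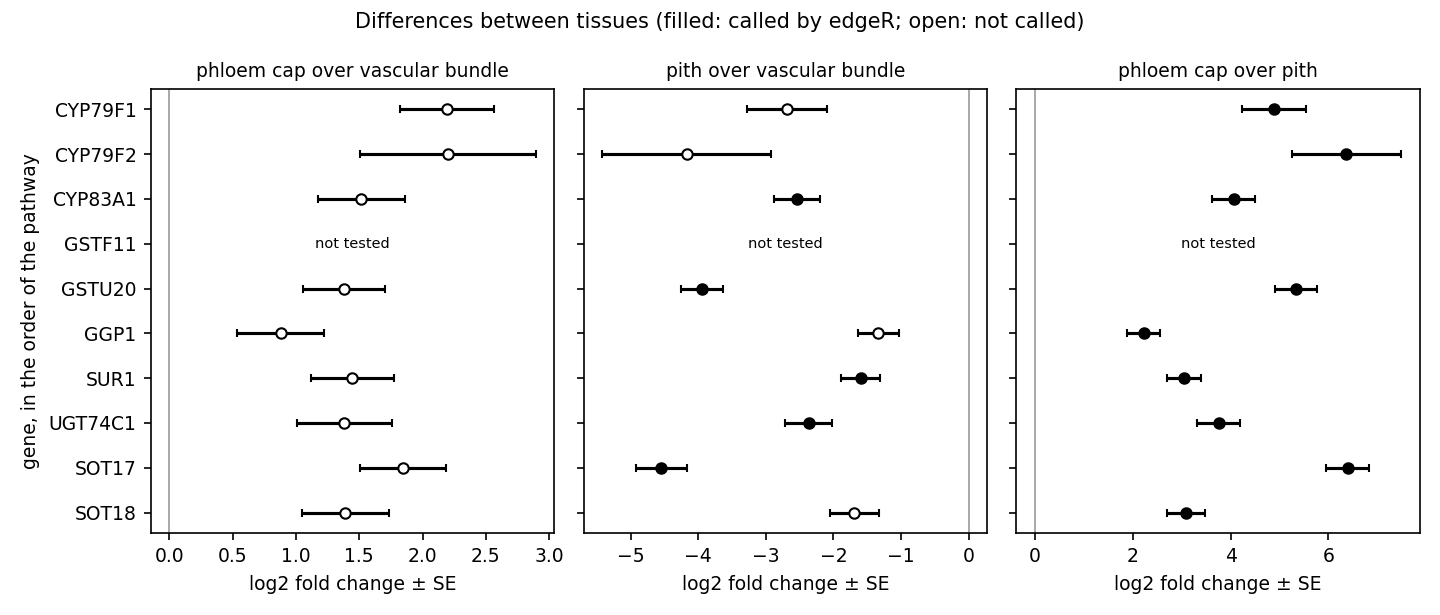
Log2 fold change with its SE for each core gene in the 3 comparisons, in pathway order. Filled points were called by edgeR and open points were not. The phloem cap differences from the vascular bundle lie between 0.88 and 2.20 and are all open, and those from the pith are all filled. GSTF11 was not tested, and the fitted values of CYP79F2 against the pith depend on the prior count.

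Aldoxime formation, the entry into the pathway, is carried out by CYP79F1 and CYP79F2, which lie in tandem on chromosome 1 (chr1:5608682-5612064 and chr1:5605044-5607498, TAIR10.1, plus strand) with 1183 bases between them. CYP79F1 accepts methionine derivatives of short and long chain length, and CYP79F2 those of long chain length. Their coding sequences are alike enough to share exact runs, which are shown because a read of 50 bases inside them maps to both genes and was left out of the counts. The longest runs, in lower case on the plus strand of TAIR10.1, have 100 bases (chr1:5609966-5610065 in CYP79F1 and chr1:5606398-5606497 in CYP79F2) and 52 bases (chr1:5610820-5610871 and chr1:5606983-5607034).
Run of 100 bases: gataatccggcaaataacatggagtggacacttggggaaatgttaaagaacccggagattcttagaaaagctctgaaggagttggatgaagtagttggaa
Run of 52 bases: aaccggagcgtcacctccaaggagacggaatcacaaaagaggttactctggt
Only 54 of the 3174 exonic windows of 50 bases in CYP79F1 (1.70%) and 54 of 1871 in CYP79F2 (2.89%) occur elsewhere, and none did in the other core genes.

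CYP79F1 had 732 and 845 CPM in phloem cap libraries, 41.6 and 11.5 CPM in pith libraries and 213 and 128 CPM in those of the vascular bundle. The pith libraries differed 3.61-fold from each other, the largest gap between replicates among core genes of more than 10 CPM. The phloem cap exceeded the vascular bundle by a log2 fold change of 2.19 (SE 0.37, edgeR adjusted p = 0.0558, DESeq2 adjusted p = 1.04e-07). Against the pith it was higher by 4.89 on the log2 scale (SE 0.65, edgeR adjusted p = 0.00164), a value that became 6.07 without pith replicate 1 and 4.24 without pith replicate 2. Its log2 fold change in the pith over the vascular bundle was -2.69 (SE 0.59, edgeR adjusted p = 0.0147, DESeq2 adjusted p = 6.82e-06). Without pith replicate 1, edgeR called it there at -3.89 (adjusted p = 6.59e-05), and without pith replicate 2 at -2.04 (adjusted p = 0.00214), in fits that take the spread from the vascular bundle libraries alone. It was not called without vascular bundle replicate 1 (-2.23, adjusted p = 0.0848) or replicate 2 (-2.98, adjusted p = 0.0393).

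CYP79F2 was scarce in every tissue. It reached 4.35 and 9.97 CPM in phloem cap libraries, 0 and 0.158 CPM in pith libraries (0 and 3 counts) and 2.37 and 0.725 CPM in those of the vascular bundle. Because the pith is at the counting limit, its fold is given from the counts: 327 counts in the phloem cap against 3 in the pith gave a ratio of 91.1 (95% interval 30.9 to 444, counting error only). The phloem cap libraries themselves held 90 and 237 counts, and the ratio was 124 without phloem cap replicate 1, 53.9 without phloem cap replicate 2, 46.6 without pith replicate 1 and at least 44.5 without pith replicate 2, where 3 counts stand for the 0. The pith held 3 counts against 67 in the vascular bundle, a ratio of 0.0537 (95% interval 0.0108 to 0.164). That ratio was 0.111 without vascular bundle replicate 1, 0.0341 without vascular bundle replicate 2, 0.105 without pith replicate 1 and at most 0.110 without pith replicate 2. EdgeR called the phloem cap higher than the pith (adjusted p = 0.00442), but not without phloem cap replicate 2 (adjusted p = 0.0341). Set against the vascular bundle, its edgeR adjusted p was 0.143 in the phloem cap and 0.0434 for the pith. Without pith replicate 2, which leaves the library with 0 counts, the pith was called lower (adjusted p = 0.00913), with the spread taken from the vascular bundle libraries alone. Without pith replicate 1 or either vascular bundle library it was not called (adjusted p = 0.0351 to 0.489). On the per-length scale CYP79F1 made up 99.2% and 98.4% of the TPM of the pair in phloem cap libraries, 100% and 98.1% in pith libraries and 98.5% and 99.2% in those of the vascular bundle. The share of CYP79F1 thus overlapped between all 3 tissues.

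CYP83A1 (chr4:7990429-7992429, minus strand) oxidizes the aldoxime and was, after GSTU20, the most abundant core transcript per length in the phloem cap and the vascular bundle. It had 2058 and 2419 CPM in phloem cap libraries, 171 and 95.5 CPM in pith libraries and 874 and 675 CPM in those of the vascular bundle. Pith levels fell by 2.54 on the log2 scale against the vascular bundle (SE 0.34, edgeR adjusted p = 0.00232). The phloem cap was higher than the pith by 4.07 on the log2 scale (SE 0.44, edgeR adjusted p = 0.000528) and exceeded the vascular bundle by 1.52 (SE 0.34, edgeR adjusted p = 0.0747, DESeq2 adjusted p = 2.73e-05).

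Of the glutathione transferases assigned to the aliphatic pathway, GSTF11 and GSTU20, only GSTU20 had counts. GSTU20 (chr1:29484120-29485389, minus strand) had 1919 and 1854 CPM in phloem cap libraries, 55.9 and 37.3 CPM in pith libraries and 787 and 647 CPM in those of the vascular bundle. Replicates of this gene lay close together in the phloem cap (1887 ± 46.0 CPM, SD, n = 2). In pith libraries it fell by 3.95 on the log2 scale against the vascular bundle (SE 0.31, edgeR adjusted p = 0.000356) and was higher by 5.33 in the phloem cap than in the pith (SE 0.43, edgeR adjusted p = 0.00022). The log2 fold change of the phloem cap over the vascular bundle was 1.38 (edgeR adjusted p = 0.0778, DESeq2 adjusted p = 5.35e-05). Per length GSTU20 was first among the core genes in the phloem cap, at 3485 ± 116 TPM, with CYP83A1 at 2635 ± 450 TPM. In the pith their order was the other way round, at 70.0 ± 18.6 TPM for GSTU20 and 127 ± 48.7 TPM for CYP83A1 (SD, n = 2 each).

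GSTF11 (chr3:734892-735987, plus strand) was listed with 0 counts in all 6 libraries. Each of its 1096 bases lies inside the model of NAC045 (AT3G03200, chr3:734892-738629, minus strand), and the authors' counting ignored strand and left out reads that overlap more than 1 gene. By that rule no read inside GSTF11 could be counted, so the deposited 0 is no measurement of its transcript. The same held across the table, where 2021 of the 2028 genes without a base of their own (99.7%) had 0 counts in all libraries, against 11691 of the other 35023 genes (33.4%). NAC045, a transcription factor gene of sieve element differentiation, had 20 and 16 counts in phloem cap libraries, 1 and 0 in pith libraries and 6 and 6 in those of the vascular bundle, from its part outside GSTF11.

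**Figure D3:**
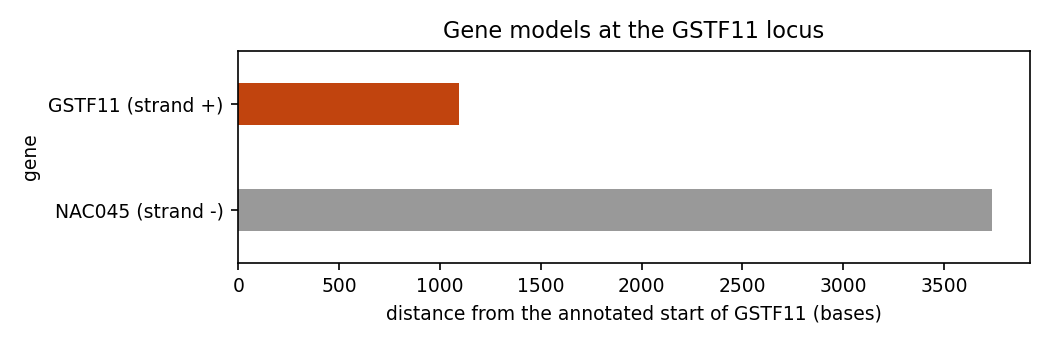
Gene models at the GSTF11 locus, drawn by distance in bases from the annotated start of GSTF11. The GSTF11 model (1096 bases) lies entirely within NAC045, which is on the opposite strand.

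GGP1 (chr4:14920376-14922519, plus strand), a gamma-glutamyl peptidase that trims the glutathione conjugate, had the log2 fold change nearest to 0 of the 9 genes in all 3 comparisons. It had 230 and 196 CPM in phloem cap libraries, 47.7 and 42.9 CPM in pith libraries and 144 and 84.8 CPM in those of the vascular bundle. Its log2 fold change in the phloem cap over the vascular bundle was 0.88 (SE 0.34, edgeR adjusted p = 0.213, DESeq2 adjusted p = 0.121), and leaving out single libraries gave values between 0.55 and 1.29. That in the pith over the vascular bundle was -1.34 (SE 0.30, edgeR adjusted p = 0.0163), and it was called without vascular bundle replicate 2 (adjusted p = 0.00817) but was -0.87 without vascular bundle replicate 1 (adjusted p = 0.157). Without pith replicate 1 or 2 it was not called (adjusted p = 0.0122 and 0.0207). The phloem cap exceeded the pith for GGP1 by 2.23 on the log2 scale (SE 0.34, edgeR adjusted p = 0.0022), a call lost without pith replicate 1 (adjusted p = 0.0152) or pith replicate 2 (adjusted p = 0.0199). GGP3, a related peptidase with the same known activity, lies 2887 bases from GGP1 and had the opposite order of tissues. Its levels were 33.7 and 35.8 CPM in phloem cap libraries, 72.1 and 91.7 CPM in pith libraries and 47.1 and 47.3 CPM in those of the vascular bundle. For GGP3, the phloem cap over the pith gave a log2 fold change of -1.24 (SE 0.33), with an edgeR adjusted p of 0.0242 and a DESeq2 adjusted p of 0.00508, so that DESeq2 alone called it, as it did 7.35% of all genes lower.

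SUR1 (chr2:8877887-8880440, minus strand), the C-S lyase, serves the aliphatic and the indole pathway alike. It had 380 and 362 CPM in phloem cap libraries, 49.1 and 40.2 CPM in pith libraries and 164 and 106 CPM in those of the vascular bundle. Pith levels fell by 1.60 on the log2 scale against the vascular bundle (SE 0.29, edgeR adjusted p = 0.00703), a call lost without vascular bundle replicate 1 (adjusted p = 0.0480). SUR1 in the phloem cap exceeded the pith by 3.05 on the log2 scale (SE 0.35, edgeR adjusted p = 0.000702) and the vascular bundle by 1.45 (SE 0.33, edgeR adjusted p = 0.0752, DESeq2 adjusted p = 0.000597).

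UGT74C1 (chr2:13518199-13520364, plus strand), a glucosyltransferase of the aliphatic pathway, had 213 and 125 CPM in phloem cap libraries, 15.4 and 9.56 CPM in pith libraries and 76.9 and 51.3 CPM in those of the vascular bundle. Other genes overlap 305 of its bases (14.1%), where reads were not counted. The gene was called lower in pith libraries than in vascular bundle libraries, at a log2 fold change of -2.36 (SE 0.35, edgeR adjusted p = 0.0032), and this call was lost without vascular bundle replicate 1 (adjusted p = 0.0133). The phloem cap exceeded the pith by 3.76 on the log2 scale (SE 0.45, edgeR adjusted p = 0.00077) and the vascular bundle by 1.38 (SE 0.37, edgeR adjusted p = 0.101, DESeq2 adjusted p = 0.0096).

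The final sulfation of aliphatic glucosinolates is carried out by SOT17 (chr1:6398531-6400029, plus strand) and SOT18 (chr1:27862814-27864193, plus strand), and the pith held their transcripts in unequal amounts. SOT17 had 221 and 274 CPM in phloem cap libraries, 2.42 and 3.42 CPM in pith libraries and 83.9 and 52.4 CPM in those of the vascular bundle. SOT18 had 457 and 462 CPM in phloem cap libraries, 67.3 and 40.2 CPM in pith libraries and 216 and 131 CPM in those of the vascular bundle. Per length, SOT17 at 3.73 ± 0.96 TPM was the scarcest core gene with counts in the pith apart from CYP79F2, whereas SOT18 had 74.3 ± 25.3 TPM, within its spread of GSTU20 (SD, n = 2 each). The log2 fold change in the pith over the vascular bundle was -4.54 for SOT17 (SE 0.37, edgeR adjusted p = 0.000416). For SOT18 it was -1.69 (SE 0.36), which edgeR did not call (adjusted p = 0.0125) and DESeq2 did. EdgeR called SOT18 lower in the pith without pith replicate 1 (adjusted p = 0.00126) or without vascular bundle replicate 2 (adjusted p = 0.00498), but not without pith replicate 2 (adjusted p = 0.0123) or without vascular bundle replicate 1 (-1.24, adjusted p = 0.0594).

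On the TPM scale SOT17 made up 30.8% and 35.4% of the pair in phloem cap libraries, 3.21% and 7.25% in pith libraries and 26.4% and 26.9% in those of the vascular bundle. Its share was lower in both pith libraries than in all others, and the ratio within a library does not depend on how libraries were scaled. SOT18 had 30.2 and 12.8 times the TPM of SOT17 in the pith, against 2.79 and 2.72 times in the vascular bundle. With 2 libraries per tissue, an exact two-sided permutation test cannot go below p = 0.333, and no test of the share was run. The longest exact run the genes share is 26 bases, shorter than a read, so reads were not ambiguous between them. Both genes exceeded the pith level in the phloem cap, by 6.40 on the log2 scale for SOT17 (SE 0.43, edgeR adjusted p = 0.00022) and 3.09 for SOT18 (SE 0.39, edgeR adjusted p = 0.00105). Their log2 fold changes over the vascular bundle were 1.85 for SOT17 (SE 0.34, edgeR adjusted p = 0.0622, DESeq2 adjusted p = 1.58e-05) and 1.39 for SOT18 (SE 0.35, edgeR adjusted p = 0.0852, DESeq2 adjusted p = 0.00174).

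**Figure D4:**
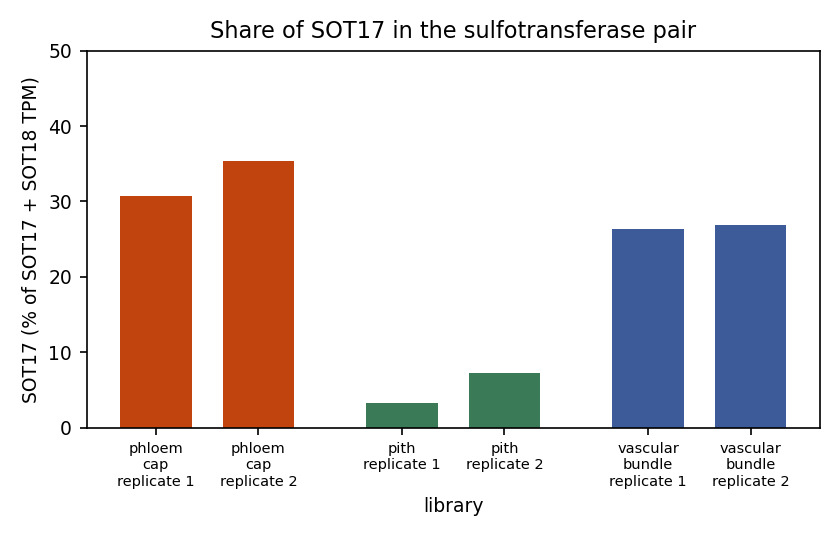
Share of SOT17 in the summed TPM of SOT17 and SOT18 in each library, with phloem cap, pith and vascular bundle from left to right. The share is 3.21% and 7.25% in the pith libraries and at least 26.4% in the other 4.

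The 250 bases before the annotated start of each core gene were searched on both strands for CACNTG (N, any base), the core recognized by many bHLH factors, for its G-box form CACGTG, and for ACCNAAC, which plant MYB factors bind. CACNTG, which includes every CACGTG, was found in 5 of the 10 windows, against 26.2% of 27443 windows before protein-coding genes. CACGTG was found in 2 of 10, CYP83A1 and SUR1, against 6.49%, and ACCNAAC in 3 of 10 (CYP83A1, SUR1 and SOT17), against 14.5%. TATAAA, searched on the strand of the gene only, was found in 2 of 10 (GSTU20 and SOT18), against 32.9%. The windows of SOT18 and GSTF11 overlap other genes (AT1G74088 and AT3G03180). The 3 windows with an ACCNAAC match, each of which also held CACNTG, are shown 5′ to 3′ on the strand of the gene (TAIR10.1, chr4:7992430-7992679 minus, chr2:8880441-8880690 minus and chr1:6398281-6398530 plus), with CACNTG matches in capitals.
CYP83A1: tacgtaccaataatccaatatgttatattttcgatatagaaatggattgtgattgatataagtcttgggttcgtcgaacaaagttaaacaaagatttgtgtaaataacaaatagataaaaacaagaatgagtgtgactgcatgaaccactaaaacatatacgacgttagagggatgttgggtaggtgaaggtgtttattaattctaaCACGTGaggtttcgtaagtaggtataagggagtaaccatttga
SUR1: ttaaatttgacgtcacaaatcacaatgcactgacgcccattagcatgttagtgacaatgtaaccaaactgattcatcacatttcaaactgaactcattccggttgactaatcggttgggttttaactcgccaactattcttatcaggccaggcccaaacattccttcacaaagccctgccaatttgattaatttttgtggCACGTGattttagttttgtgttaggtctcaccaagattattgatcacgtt
SOT17: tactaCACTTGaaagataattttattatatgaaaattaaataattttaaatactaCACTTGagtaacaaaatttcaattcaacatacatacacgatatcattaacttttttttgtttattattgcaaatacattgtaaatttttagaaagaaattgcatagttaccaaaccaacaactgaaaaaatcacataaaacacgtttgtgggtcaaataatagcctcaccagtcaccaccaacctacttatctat
The CACGTG starts 43 bases before the start of CYP83A1 and 50 bases before that of SUR1. SOT17 instead has CACTTG at 245 and 195 bases. The windows of CYP79F1, CYP79F2, GSTU20 and UGT74C1, which showed the same order of tissues, held neither CACNTG nor ACCNAAC, and neither did that of GSTF11. A match is a description of the sequence only.

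Other genes of the pathway were followed as lists, and their calls stand beside the shares of all genes given above. These were 2.87% called higher by DESeq2 for the phloem cap over the vascular bundle, and by edgeR 10.5% called lower for the pith over the vascular bundle and 8.33% called higher for the phloem cap over the pith. The 10 genes of methionine chain elongation, which supply the substrate of the CYP79F enzymes, had 9 tested. For the phloem cap over the vascular bundle, DESeq2 called 8 higher (median log2 fold change 1.48). For the pith over the vascular bundle edgeR called 7 lower (median -2.62), and for the phloem cap over the pith it called 8 higher (median 4.20). IIL1 and IMD1, the large subunit of an isomerase and a dehydrogenase of the elongation cycle, had the highest mean CPM of the list. IMD1 had 1377 and 1299 CPM in phloem cap libraries, 92.5 and 53.1 CPM in pith libraries and 496 and 400 CPM in those of the vascular bundle. IIL1 had 1374 and 1142 CPM in phloem cap libraries, 370 and 252 CPM in pith libraries and 574 and 358 CPM in those of the vascular bundle, and edgeR did not call it for the pith over the vascular bundle (-0.58 on the log2 scale, SE 0.32, edgeR adjusted p = 0.21).

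Of the 8 genes that modify the side chain, 7 were tested, and DESeq2 called 4 higher and 1 lower for the phloem cap over the vascular bundle (median 1.45), where it called 3.9% of all genes lower. EdgeR called 5 lower for the pith over the vascular bundle and 5 higher for the phloem cap over the pith. FMO GS-OX3, which oxidizes the side chain sulfur, had 435 and 330 CPM in phloem cap libraries, 20.8 and 10.9 CPM in pith libraries and 145 and 118 CPM in those of the vascular bundle. GS-OH, a hydroxylase, had 110 and 150 CPM in phloem cap libraries, 1.32 and 1.79 CPM in pith libraries and 37.5 and 32.8 CPM in those of the vascular bundle. FMO GS-OX2 and FMO GS-OX5, named here after their values were seen, had lower levels in both phloem cap libraries than in both vascular bundle libraries. FMO GS-OX2 had 11.2 and 13.6 CPM in phloem cap libraries against 45.5 and 54.5 CPM in those of the vascular bundle. The difference was -2.03 on the log2 scale (SE 0.27, edgeR adjusted p = 0.0495, DESeq2 adjusted p = 1.47e-07). FMO GS-OX5 had 16.7 and 25.9 CPM in phloem cap libraries, 45.5 and 55.4 CPM in pith libraries and 28.8 and 32.03 CPM in those of the vascular bundle, so that its order of tissues was the reverse of that of the core genes. EdgeR called it in no comparison (adjusted p = 0.387 for the phloem cap over the vascular bundle, 0.0600 for the pith over the vascular bundle and 0.0375 for the phloem cap over the pith), and other genes overlap 44.5% of its length, where reads were not counted.

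The regulators MYB28, MYB29 and MYB76, known activators of aliphatic glucosinolate genes, had log2 fold changes of 2.11, 2.53 and 2.18 for the phloem cap over the vascular bundle. All 3 were called there by DESeq2 and none by edgeR (adjusted p = 0.0549, 0.0486 and 0.0635). MYB28 had 117 and 84.7 CPM in phloem cap libraries, 5.23 and 5.57 CPM in pith libraries and 27.7 and 18.7 CPM in those of the vascular bundle. MYB29 had 100.1 and 110.0 CPM in phloem cap libraries, 12.8 and 4.41 CPM in pith libraries and 21.8 and 14.1 CPM in those of the vascular bundle. MYB76 was scarcer, with 5.41 and 5.47 CPM in phloem cap libraries, 0 and 1 count in pith libraries and 1.09 and 1.28 CPM in those of the vascular bundle. Of these, edgeR called only MYB28 lower for the pith over the vascular bundle (-2.11 on the log2 scale, SE 0.33, adjusted p = 0.00402), and it called all 3 higher for the phloem cap over the pith.

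The 8 genes of the indole core pathway had a median of 0.80 on the log2 scale for the phloem cap over the vascular bundle, where DESeq2 called 1 higher (CYP83B1, named after its values were seen). EdgeR called 6 lower for the pith over the vascular bundle (median -2.37), beside 10.5% of all genes, and 7 higher for the phloem cap over the pith (median 3.06), beside 8.33%. GSTF9 and GSTF10, highest of them in mean CPM, are glutathione transferases. GSTF9 had 6462 and 5483 CPM in phloem cap libraries, 647 and 793 CPM in pith libraries and 3787 and 2982 CPM in those of the vascular bundle. GSTF10 had 1989 and 1590 CPM in phloem cap libraries, 1949 and 1649 CPM in pith libraries and 1698 and 1311 CPM in those of the vascular bundle, and its libraries overlapped between tissues.

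Genes that supply cofactors were mixed. Of 7 tested, none was called by either tool for the phloem cap over the vascular bundle (median 0.22). EdgeR called 2 lower and 1 higher for the pith over the vascular bundle (median -0.59), where 5.44% of all genes were called higher, and 3 higher for the phloem cap over the pith. GSH1, the first enzyme of glutathione synthesis, had 580 and 432 CPM in phloem cap libraries, 1093 and 1238 CPM in pith libraries and 473 and 389 CPM in those of the vascular bundle. In pith libraries it exceeded the vascular bundle by 1.43 on the log2 scale (SE 0.23, edgeR adjusted p = 0.00444). APK1, a kinase that makes the sulfate donor of the sulfotransferases, had 545 and 325 CPM in phloem cap libraries, 36.6 and 36.4 CPM in pith libraries and 235 and 160 CPM in those of the vascular bundle. Pith levels fell by 2.44 on the log2 scale against the vascular bundle (SE 0.27, edgeR adjusted p = 0.00113).

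**Figure D5:**
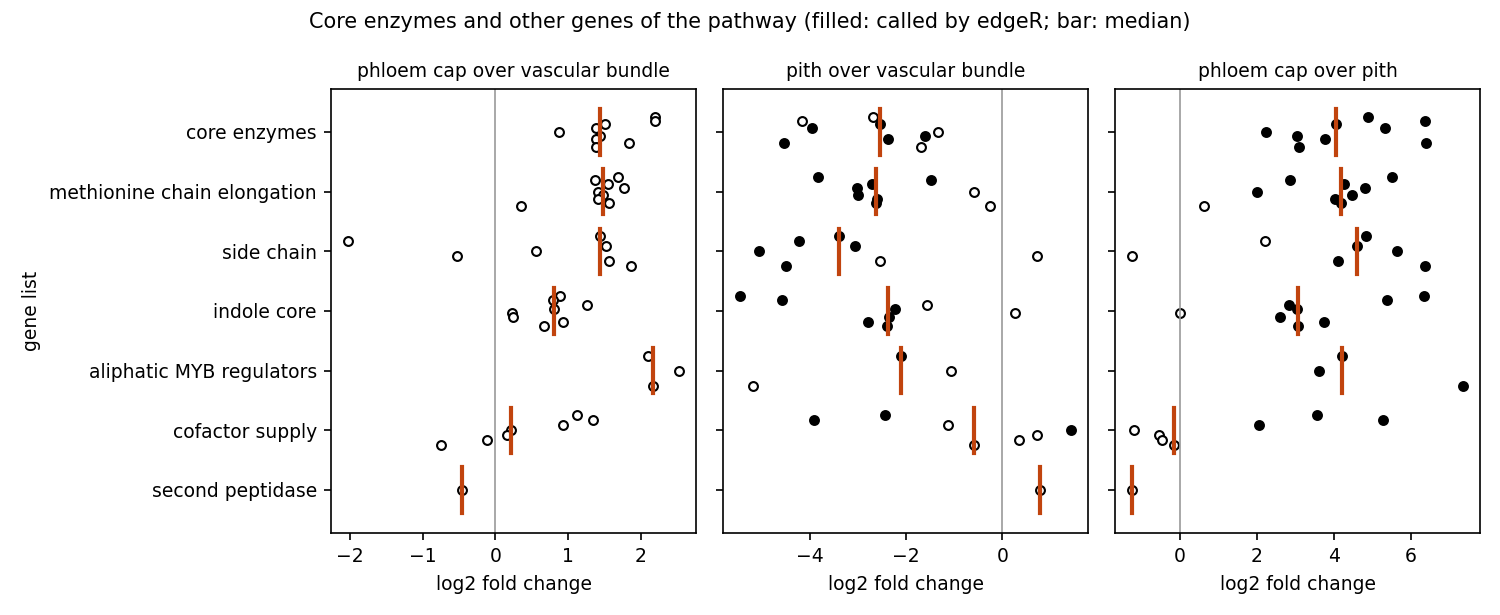
Log2 fold change of each tested core gene and of the other pathway lists in the 3 comparisons. Filled points were called by edgeR, open points were not, and vertical bars are list medians. Core genes, chain elongation and MYB regulators lie to the right in the phloem cap comparisons, with medians of 1.45, 1.48 and 2.18 over the vascular bundle. Indole core genes also lie to the right over the vascular bundle (median 0.80) and mostly over the pith (median 3.06). Side chain and cofactor genes lie on both sides of 0.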

How the data were processed

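Laser-captured tissue gave amplified RNA, sequenced as single-end reads. The authors deposited raw counts per gene: reads were mapped to TAIR10 with STAR 2.5.0a, unique alignments kept, and reads counted over each Araport11 gene with introns, ignoring strand and leaving out reads that overlap more than 1 gene. Overlapping and antisense genes are therefore uncertain. Of the columns of counts, 0 were unused. All 37051 identifiers matched the TAIR10.1 annotation, whose nuclear chromosomes are those of TAIR10 and which gave coordinates and sequence from RefSeq.

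R 4.3.3, edgeR 4.0.16 and DESeq2 1.42.0 were used. Each comparison was fitted on its 4 libraries (filterByExpr, TMM, glmQLFit robust, glmQLFTest), called at an adjusted p below 0.01 and a fold above 2, with 18063 to 18528 genes tested. SEs were derived as the size of the log2 fold change over the square root of F. Alternatives were DESeq2's Wald test, which the study used, DESeq2 size factors, no count filter, 1 fit over all 6 libraries, an adjusted p of 0.05, and each library left out.

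The core genes and lists were chosen with earlier results of these data known. Named genes were all core genes, the 2 most abundant of each list (or all, with 3 or fewer), and the 5 genes nearest in profile. Nothing states that libraries came from separate plants, so p-values measure only the spread between these samples. Intervals cover counting error only. In tests on simulated data with 200 genes changed by 3 on the log2 scale, edgeR and DESeq2 recovered 99.5% and 99.5% in the phloem cap over the vascular bundle (18528 genes, 1 and 5 false calls), 99.5% and 100% in the pith over the vascular bundle (18063 genes, 2 and 5 false calls), and 94.5% and 96.5% in the phloem cap over the pith (18201 genes, 1 and 8 false calls). In the deposited counts edgeR called 0 of the 18528 genes of the phloem cap over the vascular bundle, so these shares do not measure power for these libraries.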

Additional observations from a re-analysis of the deposited data

How the results depend on the processing

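No paired analysis was possible because the labels give no replicate numbers that libraries of different tissues share. No fold change of a core gene reversed direction under any alternative. Apart from the leave-one-out fits, 96 of their alternative values kept their side of the threshold, 12 passed it newly and 0 lost it. In the leave-one-out fits 91 kept their side, 12 passed newly and 5 were lost. In the phloem cap over the vascular bundle, edgeR called 0 genes and 0 core genes. DESeq2's Wald test called 1356 genes and 7 core genes, no count filter 97 genes, an adjusted p of 0.05 gave 92 genes, and leaving out a library gave 1 to 1943 genes and 0 to 4 core genes. The low counts came from fits that kept both phloem cap libraries: 1 without vascular bundle replicate 1 and 3 without vascular bundle replicate 2, against 675 without phloem cap replicate 1 and 1943 without phloem cap replicate 2. In the pith over the vascular bundle, 2870 genes and 5 core genes became 4352 and 8 with DESeq2, 5065 and 9 at an adjusted p of 0.05, and 1431 to 5542 and 3 to 7 with a library left out, the 3 core genes without vascular bundle replicate 1. In the phloem cap over the pith, 2307 genes became 4066 with DESeq2, 3561 with no count filter, 4780 at an adjusted p of 0.05 and 1798 to 2098 with a library left out, while the 9 core genes became 8 to 9. With 2 libraries per tissue the spread rests on 2 degrees of freedom per fit before it is shared across genes. Depth limits CYP79F2 and MYB76 in the pith, at or under 3 counts per library; the medians of their lists were 4.07 and 4.22 in the phloem cap over the pith with these genes set to their bound.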

Other observations

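The 9 core genes with counts moved closely together across the 6 libraries. The Pearson correlation of each gene's log2 CPM with the mean of the other 8 lay between 0.945 (CYP79F2) and 0.994 (CYP83A1), a description over libraries that belong to only 3 tissues. Among 10821 genes of at least 10 CPM on average, the 5 other genes nearest to the mean core profile were AT1G21440 (r = 0.998), AT1G67720 (0.997), BOB1 (0.997), MT3 (0.997) and AT1G75060 (0.996), none of which is on the pathway lists. AT1G21440 had 148 and 164 CPM in phloem cap libraries, 6.33 and 5.62 CPM in pith libraries and 51.3 and 37.4 CPM in those of the vascular bundle. MT3, a metallothionein gene, had 977 and 893 CPM in phloem cap libraries, 45.4 and 39.7 CPM in pith libraries and 482 and 240 CPM in those of the vascular bundle. The nearest gene of the pathway lists was IMD1, at rank 12 (r = 0.995). PIN3, at rank 447 of the 10821 genes, still had r = 0.944, so such closeness was not particular to the pathway. GGP3 stood at rank 10725, with r = -0.982.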
